A study of Mus musculus with 6 samples.

Results

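The genes described here are 39 interferon-stimulated genes, chosen by name as rows of the authors' comparison of Arid4bSCKO with control testes. All 39 had a row among the 22320 genes of that comparison, and all 39 passed the minimum level for testing, a mean log2 level of 1. Poly(A) RNA of whole mouse testes, taken at postnatal day 1.5, was sequenced. Arid4bSCKO mice had the genotype Arid4b-/Flox; Amh-cre, and control mice had the genotype Arid4b+/Flox; Amh-cre. The strain was a hybrid C57BL6/J and 129/SvEv background throughout, and both groups carried the floxed allele and the Cre transgene. Amh drives Cre in Sertoli cells, the somatic cells that line the testis cords, whereas the second allele of the Arid4bSCKO mice is written as a null allele, which no cell type restriction limits. Each group was made up of 3 pools with 4 testes in each pool. The values are the authors' group means of log2 normalized counts, so single pools were not analysed here.

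Interferons are secreted proteins by which cells warn each other of infection. Type I interferons bind a receptor made of IFNAR1 and IFNAR2, and the kinases JAK1 and TYK2 then activate a complex with STAT2 and IRF9 that binds the interferon-stimulated response element (ISRE) of its target genes. Genes that respond to interferon gamma often carry a gamma-activated site (GAS). Sensors of viral RNA, antiviral effectors, the ubiquitin-like protein ISG15 and guanylate-binding GTPases are among the induced products. Many of these genes also have a low level without infection, and macrophages are a strong source of them.

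The sequences below show the ISRE and GAS cores that lie before the start of members with different values, because these sites are how interferon reaches its targets. Promoter sequence came from RefSeq (GRCm38.p6, the same assembly as mm10), and 28 of the 39 members matched a row by symbol. The ISRE core was searched as GAAA, any 2 bases and GAAA, the GAS core as TTCNNNGAA and a stricter GAS core as TTCCNGGAA, in the 250 bases before the start and on both strands. The stricter GAS core is contained in the GAS core, and neighbouring ISRE cores may overlap. Isg15 is shown because it rose and has an ISRE core. The others were picked after their values were seen, as members that were not called (Gbp2, Ifit1, Rsad2 and Irgm1), as the member that rose with a GAS core (Irf1) and as a chemokine gene with a far larger rise (Cxcl10). Each is written 5′ to 3′ on the strand of the gene, with the matched cores in capitals, and a core on the opposite strand (Gbp2, Ifit1 and Rsad2) reads as its reverse complement.
Isg15, chr4:156200863-156200908, minus strand: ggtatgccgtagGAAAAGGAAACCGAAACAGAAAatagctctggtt
Gbp2, chr3:142620592-142620625, plus strand: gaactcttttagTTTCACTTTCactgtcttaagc
Ifit1, chr19:34640773-34640825, plus strand: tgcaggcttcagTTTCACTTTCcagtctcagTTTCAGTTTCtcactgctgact
Rsad2, chr12:26456551-26456584, minus strand: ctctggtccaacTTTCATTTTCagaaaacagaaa
Irgm1, chr11:48871423-48871462, minus strand: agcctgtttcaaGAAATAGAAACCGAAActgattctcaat
Cxcl10, chr5:92349081-92349114, minus strand: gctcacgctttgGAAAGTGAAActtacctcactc
Irf1, chr11:53769912-53769944, plus strand: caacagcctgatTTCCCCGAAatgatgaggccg

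Isg15 held 3 overlapping ISRE cores between -78 and -57 of its start, Irgm1 held 2 overlapping cores and Ifit1 held 2 separate cores. An ISRE core was found in 14 of the 28 members with a promoter row (50.0%), against 3.14% of 13148 tested genes with such a row and 3.46% of 27025 genes in the promoter table. A GAS core was found in 8 of the 28 members (28.6%), against 7.32% of the tested genes. The stricter GAS core was found in 3 of the 28 members (10.7%), against 1.22% of the tested genes. Both an ISRE core and a GAS core were present in 5 members, and 11 members with a promoter row had neither. These matches describe letters in a window and are not evidence of binding.

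**Figure D1:**
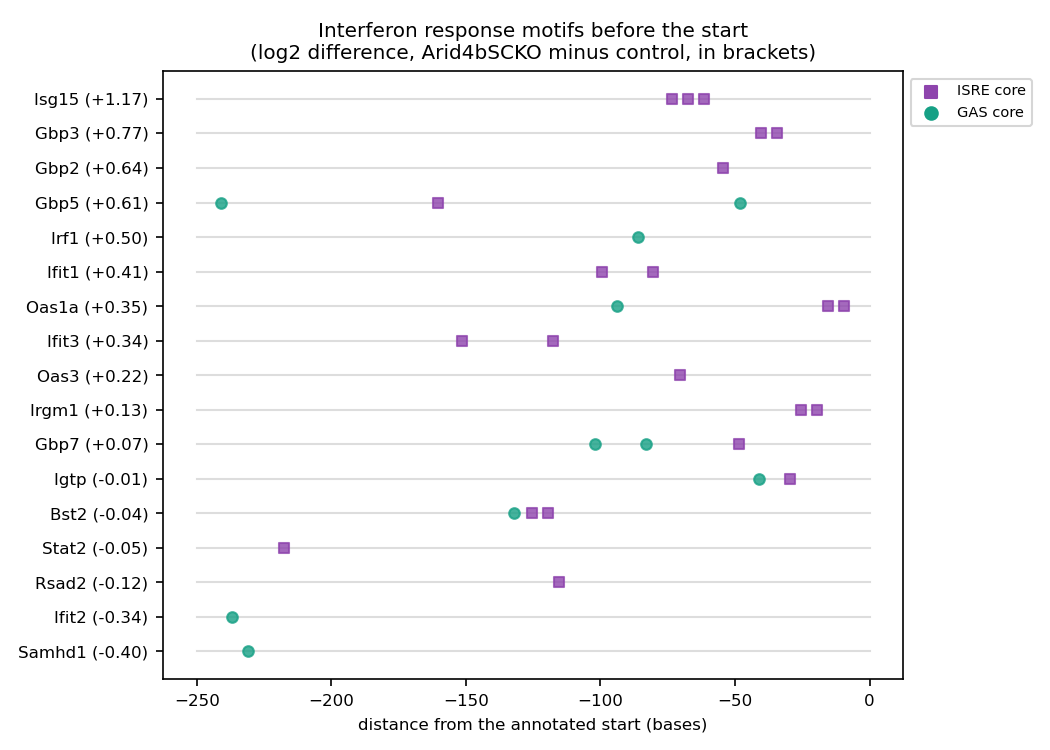
Positions of ISRE cores (squares) and GAS cores (circles) in the 250 bases before the annotated start of the 17 members that held either, with the distance from the start in bases on the x axis. Members run from the highest to the lowest log2 difference, Arid4bSCKO minus control, which is given in brackets, and cores are present from Isg15 at 1.17 down to Samhd1 at -0.40.

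The targeted gene Arid4b was lower in Arid4bSCKO testes, with authors' means of 8.68 in Arid4bSCKO and 10.19 in control testes on the log2 scale. Of the interferon-stimulated genes, few were called. A limma test that shares the estimate of the spread between genes called 3 of the 39 members at an adjusted p below 0.05 (7.69%), where 13.8% of all 19095 genes tested were called. Isg15 and Irf1 rose, and Samhd1 fell. In one direction each, the background was 7.37% called higher and 6.46% called lower. By the authors' deposited table's own FDR, 0 of the 39 were below 0.05, as were 0.26% of all its genes, and 8 of the 39 (20.5%) had an unadjusted p below 0.05 in the limma test, against 29% of all genes tested. At an unadjusted p below 0.05 in the authors' deposited table there were 2 members higher and 2 lower, where 9.86% and 11.1% of all genes stood on those sides. In whole testes, fewer cells of a type and less RNA per cell cannot be told apart.

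Most members that were not called still had small positive differences. The difference was positive for 28 of the 39 members (71.8%), against 45.8% of all genes tested. The median difference over the members was 0.22 log2 units, against -0.04 over all genes tested. Differences larger than 0.5 log2 units in size were seen in 9 members (23.1%) and in 23.2% of all genes tested. The members are not independent of each other, since they answer to the same signals, so the median is given as a description.

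**Figure D2:**
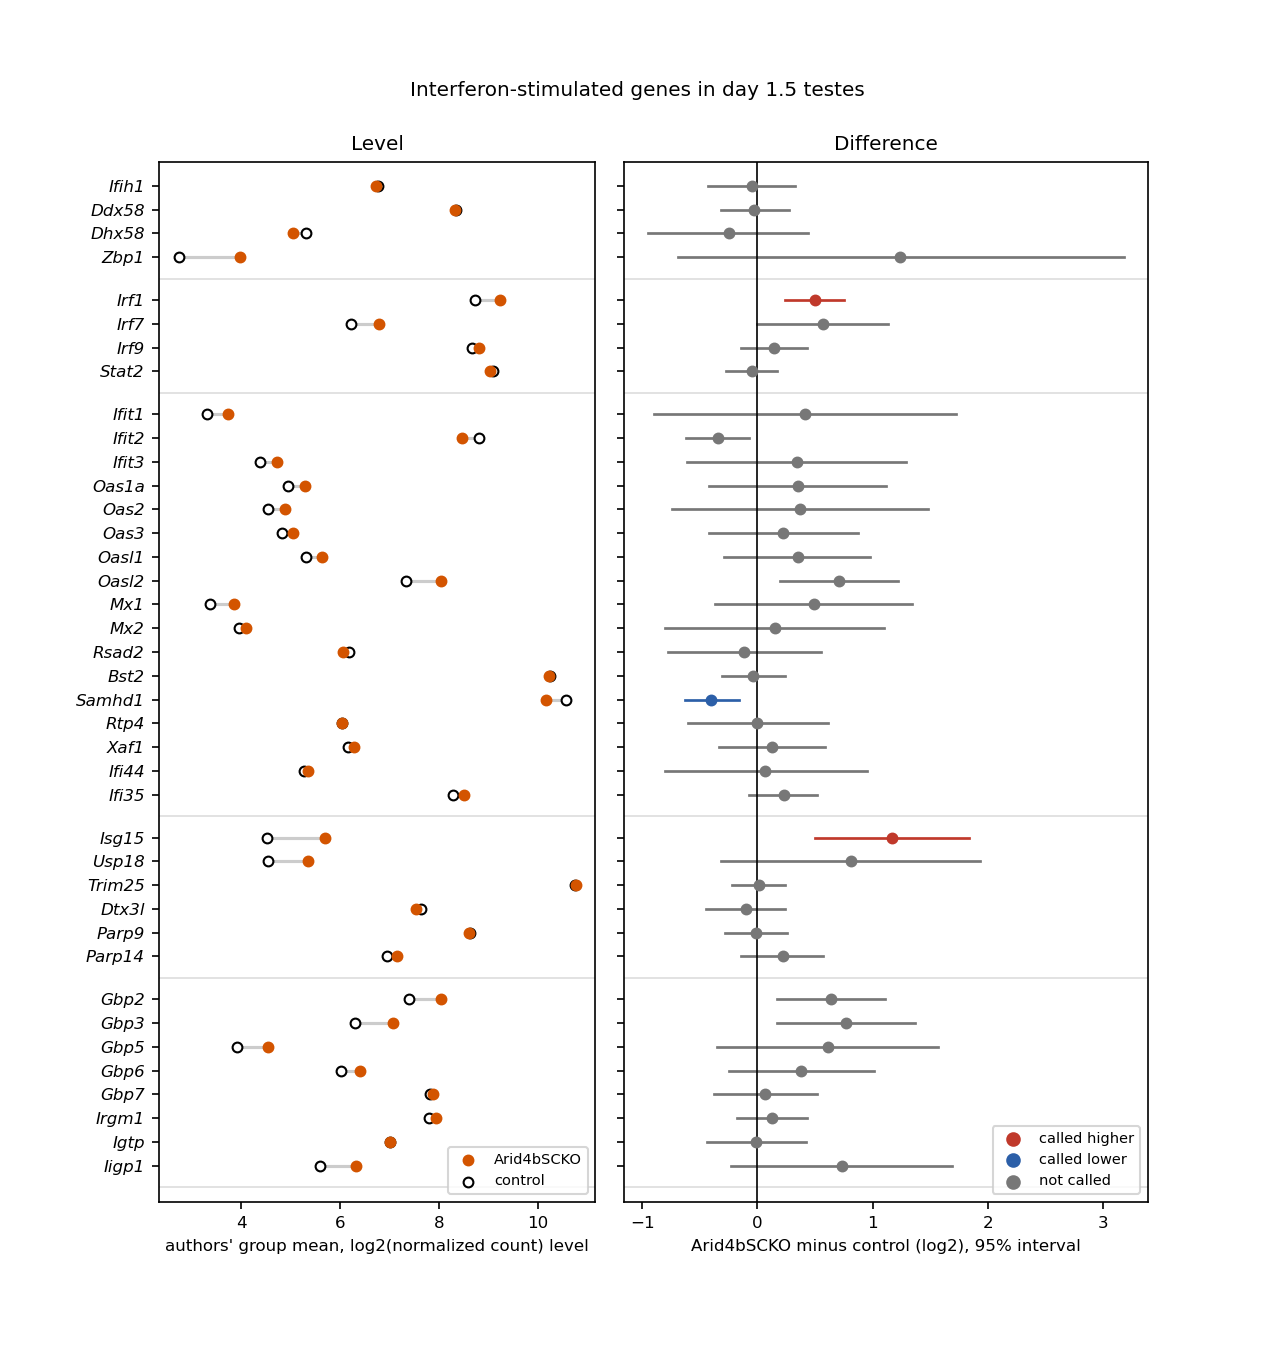
Left, the authors' group means of the 39 members on the log2 normalized count scale, with Arid4bSCKO as filled and control as open circles. Right, the difference Arid4bSCKO minus control in log2 units with its 95% interval, red for members called higher (Isg15 and Irf1), blue for the member called lower (Samhd1) and grey for the other members.

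The precision of these differences depended on the level of the gene. The median half-width of the 95% interval was 0.96 log2 units for the 9 members at levels from 3 to 5, 0.64 for the 13 members at levels from 5 to 7, 0.3 for the 13 members at levels from 7 to 9 and 0.23 for the 4 members above. The interval lay wholly within a 2-fold change, between -1 and 1 log2 units, for 23 of the 39 members (59.0%), against 67.7% of all genes tested. For the other members, a change of 2-fold or more in at least 1 direction was not excluded by the interval. The level of Ifit1, for example, corresponded to about 9.05 reads per Arid4bSCKO library and 7.27 per control library.

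**Figure D3:**
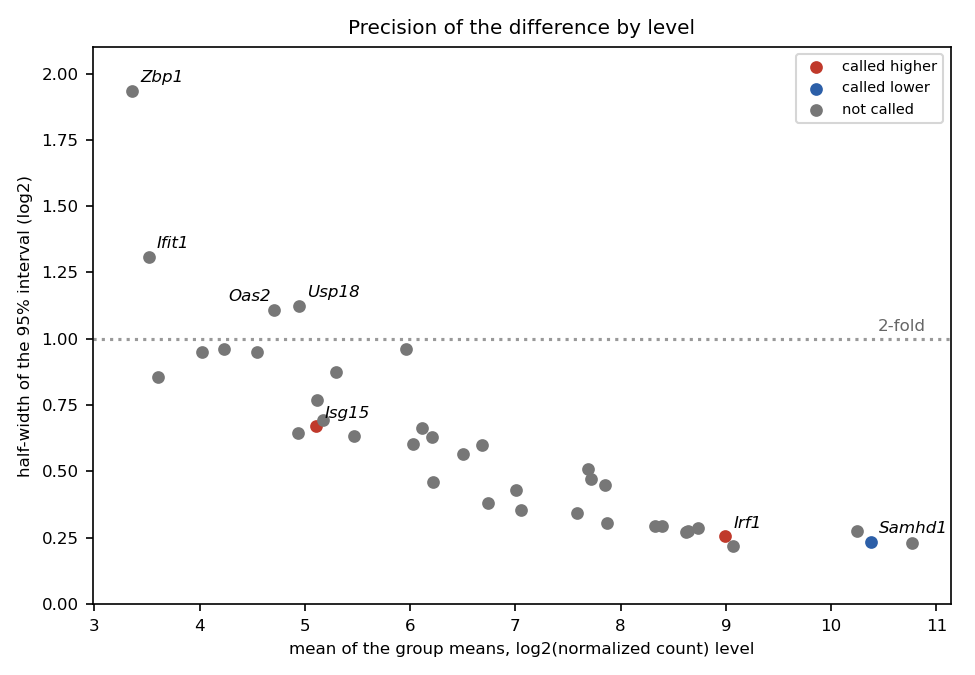
Half-width of the 95% interval of the difference (log2 units) against the mean of both group means (log2 normalized count level) for the 39 members, coloured by call, with a dotted line at a half-width of 1, or 2-fold. Intervals narrow from Zbp1, Ifit1, Usp18 and Oas2, above the line, to the members at levels above 8, and Samhd1 and Irf1 were called at small half-widths.

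None of the sensors of viral nucleic acid was called, and their differences ran from -0.25 for Dhx58 to 1.24 for Zbp1. Ifih1, which encodes the long double-stranded RNA sensor MDA5, had authors' means of 6.72 in Arid4bSCKO and 6.77 in control testes, a difference of -0.05 (95% interval -0.43 to 0.33). Ddx58, which encodes the sensor RIG-I, had authors' means of 8.32 in Arid4bSCKO and 8.34 in control testes, a difference of -0.03 (-0.32 to 0.27). For both sensors the interval lay within a 2-fold change. Dhx58, which encodes the related helicase LGP2, was at -0.25 (-0.95 to 0.44). Zbp1, a sensor of Z-form nucleic acid that can trigger cell death, had authors' means of 3.98 in Arid4bSCKO and 2.74 in control testes, a difference of 1.24 with a wide interval of -0.69 to 3.18 and an adjusted p of 0.382. Its level corresponded to about 11 reads per Arid4bSCKO library and 4.61 per control library. None of the 4 sensors had an unadjusted p below 0.05 (0 of 4 in the limma test and 0 of 4 in the authors' deposited table). Of all genes tested, 29% did in the limma test.

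Among the transcription factors, Irf1 rose and the components of the ISRE-binding complex did not pass the test. Irf1, a factor induced by interferon gamma and by several inflammatory signals (chromosome 11, 53770013 to 53778374, mm10), had authors' means of 9.24 in Arid4bSCKO and 8.74 in control testes. The difference of 0.50 (95% interval 0.24 to 0.75), a 1.41-fold higher level, had an adjusted p of 0.0165. The authors' deposited table gives Irf1 an FDR of 0.138. Irf7, the factor that amplifies the type I interferon response, had authors' means of 6.79 in Arid4bSCKO and 6.22 in control testes. Its difference of 0.57 was larger than that of Irf1 but its interval reached from 0.00 to 1.13, and its adjusted p was 0.172. Irf9 was at 0.14 (-0.14 to 0.43) and Stat2 at -0.05 (-0.27 to 0.17). The promoter window of Irf1 held the GAS core printed above and no ISRE core, and the window of Stat2 held an ISRE core, while those of Irf7 and Irf9 held neither.

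The 17 antiviral effectors had 1 member called lower (5.88%, against 6.46% of all genes tested) and 0 higher (against 7.37%). Their median difference was 0.22, with a range of -0.40 to 0.71. Samhd1, which encodes a phosphohydrolase that lowers the cell's deoxynucleotide pool and so limits retroviruses (chromosome 2, 157097528 to 157135222, mm10), fell. Its authors' means were 10.18 in Arid4bSCKO and 10.57 in control testes, a difference of -0.40 (95% interval -0.63 to -0.16), or 75.9% of control, with an adjusted p of 0.0321. The authors' deposited table gives Samhd1 an FDR of 0.207. The call on Samhd1 was lost after centring on transcript length (-0.34, limma adjusted p = 0.0625), and when the authors' fold of medians was used (-0.31, adjusted p = 0.0736). No other effector was called.

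The OAS genes encode synthetases of 2′-5′-linked oligoadenylates, which switch on RNase L, and the OASL genes encode relatives of them. Oasl2, with authors' means of 8.05 in Arid4bSCKO and 7.34 in control testes, was at 0.71 (95% interval 0.20 to 1.22), a 1.63-fold higher value with an adjusted p of 0.0682. With the authors' fold of medians, 0.77, Oasl2 was called at an adjusted p of 0.0462. Its neighbour Oasl1 was at 0.35 (-0.29 to 0.98), and Oas1a, Oas2 and Oas3 were at 0.35, 0.37 and 0.22. All 5 OAS and OASL members were positive, against 45.8% of all genes tested, and none was called, against 13.8%. Apart from that of Oasl2, their intervals all reached below 0. Only Oasl2 had an unadjusted p below 0.05 in the limma test, as did 29% of all genes tested.

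The IFIT proteins bind foreign RNA and block its translation. Ifit2 was not called, with authors' means of 8.47 in Arid4bSCKO and 8.81 in control testes, a difference of -0.34 (95% interval -0.62 to -0.07) and an adjusted p of 0.0892. Ifit1 and Ifit3 were at 0.41 (-0.90 to 1.72) and 0.34 (-0.61 to 1.29). The 3 genes lie within 99 kb of chromosome 19 (34550693 to 34650009). The intervals of Ifit1 and Ifit3 include the value of Ifit2, so a difference among the 3 genes was not resolved. The window before the start of Ifit2 held a GAS core and no ISRE core, whereas those of Ifit1 and Ifit3 held 2 ISRE cores each.

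Of the other effectors, Mx1 and Mx2 encode dynamin-like GTPases, and Mx1 is defective in most laboratory strains. They were at 0.49 (95% interval -0.37 to 1.34) and 0.15 (-0.80 to 1.10). Rsad2, which encodes the antiviral radical-SAM enzyme viperin, was at -0.12 (-0.78 to 0.55). Bst2, which encodes tetherin, an anchor that holds budding virus to the cell, had authors' means of 10.23 in Arid4bSCKO and 10.26 in control testes, a difference of -0.04 (-0.31 to 0.24). Rtp4, Ifi44, Xaf1 and Ifi35 were at 0.00, 0.07, 0.13 and 0.23, and each of these intervals lay within a 2-fold change. Viperin and tetherin are among the classical products of a type I interferon response, as is ISG15, whose gene rose. Whether such a response took place was not tested.

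Isg15 rose by the largest amount among the members called. It encodes a ubiquitin-like protein that is joined to other proteins during an interferon response (chromosome 4, 156199423 to 156200818, mm10). Its authors' means were 5.69 in Arid4bSCKO and 4.52 in control testes, a difference of 1.17 (95% interval 0.50 to 1.84), or 2.25-fold, with an adjusted p of 0.0277. The authors' deposited table gives Isg15 an FDR of 0.153. Its level corresponded to about 37.6 reads per Arid4bSCKO library and 17.9 per control library. Usp18, the protease that removes ISG15 and damps the type I receptor, was at 0.81 (-0.32 to 1.93), with an adjusted p of 0.329. Of the genes of the ISG15 conjugation pathway outside the members, Ube2l6, the ISG15-conjugating enzyme gene, rose by 0.38 (0.18 to 0.59), and Uba7, the ISG15-activating enzyme gene, was at 0.22 (-0.22 to 0.66) and not called. Trim25, a ubiquitin ligase that activates RIG-I, was at 0.01 (-0.22 to 0.24).

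The ADP-ribosylation genes that are induced together by interferon showed no called member. Parp9 and Dtx3l, whose products work as a pair of an ADP-ribosyltransferase and a ubiquitin ligase, were at -0.01 (95% interval -0.28 to 0.26) and -0.10 (-0.45 to 0.24), and Parp14 was at 0.22 (-0.14 to 0.57). These genes lie within 140 kb of chromosome 16 (35832877 to 35972621). The gene models of Parp9 and Dtx3l overlap by 559 bases, so their reads can be told apart only by strand there. The library kit kept strand, but no source used here says whether the counting did.

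The guanylate-binding proteins and immunity-related GTPases attack vacuoles that hold microbes, and many respond to interferon gamma. The 8 members had the highest median of the role groups, 0.50, with 7 positive differences (Gbp7 and Igtp changed sign under other scalings or the fold of medians), but none was called (0 of 8), with 2 of 8 at an unadjusted p below 0.05 in the limma test and 0 of 8 in the authors' deposited table. Gbp2 had authors' means of 8.04 in Arid4bSCKO and 7.40 in control testes, a difference of 0.64 (95% interval 0.17 to 1.11) with an adjusted p of 0.0700. Gbp3 had authors' means of 7.07 in Arid4bSCKO and 6.30 in control testes, a difference of 0.77 (0.17 to 1.37) with an adjusted p of 0.0852, and it was called with the authors' fold of medians (0.92, adjusted p = 0.0427). These were the 2 members just outside the threshold in this group. Gbp5 was at 0.61 (-0.35 to 1.57), Gbp6 at 0.38 (-0.25 to 1.01) and Gbp7 at 0.07 (-0.38 to 0.52). The immunity-related GTPase genes Iigp1, Irgm1 and Igtp were at 0.73 (-0.23 to 1.69), 0.13 (-0.18 to 0.43) and -0.01 (-0.44 to 0.42).

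Gbp5, Gbp7, Gbp3 and Gbp2 lie side by side within 141 kb of chromosome 3 (142496933 to 142638008) and each held an ISRE core before its start. Their differences ran from 0.07 for Gbp7 to 0.77 for Gbp3, and their intervals overlap. Guanylate-binding genes are close paralogs, and in the authors' table the model of Gbp2b overlaps those of Gbp3, Gbp5 and Gbp7, the model of Gbp10 overlaps that of Gbp6 and the model of Irgm2 overlaps that of Igtp. In all, 10 members overlap another gene model of the table, and their values are uncertain to the extent that reads were shared. Some related genes outside the members had a very large spread between pools, as implied by the deposited p. This implied SD was 2.5 log2 units for Gbp2b and 2.1 for Gbp4, against a median of 0.49 over 2371 genes at levels from 3 to 5.

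The upstream steps of the pathway were then described with lists of genes outside the members. Of 21 interferon ligand genes written, 3 matched a row, and the others have no value here. Ifnab and Ifng were barely read, and the value of Ifnz matched the filled-in values that were left out of testing. Of the 3, Ifng, the gene of interferon gamma, had authors' means of 0.40 in Arid4bSCKO and 0.39 in control testes, under the level for testing. Receptor genes were read in both groups. Ifnar1 had authors' means of 11.82 in Arid4bSCKO and 11.81 in control testes, a difference of 0.01 (95% interval -0.18 to 0.20). Ifnar2, Ifngr1 and Ifngr2 were at 0.13, 0.25 and -0.08. Of 6 receptor genes 1 was called (16.7%, against 13.8% of all genes tested). It was Il10rb, a shared chain of the receptors for interferon lambda and interleukin 10, which rose by 0.34 (0.13 to 0.55).

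By the authors' deposited FDR, 0 genes of the receptor list and of the 3 upstream lists that follow were below 0.05. Of 11 transducers and brakes, 1 was called in the limma test (9.09%, against 13.8% of all genes tested). Socs3, an inhibitor induced by several cytokines, rose by 0.54 (95% interval 0.21 to 0.88). Jak1 and Tyk2 were at -0.14 and 0.11, and neither was called. Of 17 adaptors, kinases and regulatory factors of nucleic acid sensing, 1 was called higher and 2 lower (17.6%). Unc93b1, which carries nucleic acid receptors to endosomes, rose by 0.39 (0.15 to 0.63). Mavs, the mitochondrial adaptor of RIG-I and MDA5, fell by 0.44 (interval -0.69 to -0.20). Mb21d1, the gene of the DNA sensor cGAS, fell by 0.51 (-0.83 to -0.19), a call that was lost with each of the 3 centrings, at limma adjusted p from 0.0525 to 0.0697, and with the authors' fold of medians (adjusted p = 0.058). Of 8 genes that clear nucleic acids, 1 was called higher (12.5%), the ribonuclease H2 subunit gene Rnaseh2c, at 0.50 (0.21 to 0.79). That call was lost after centring on transcript length (0.39, limma adjusted p = 0.0731) and with the authors' fold of medians (0.36, adjusted p = 0.0878).

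**Figure D4:**
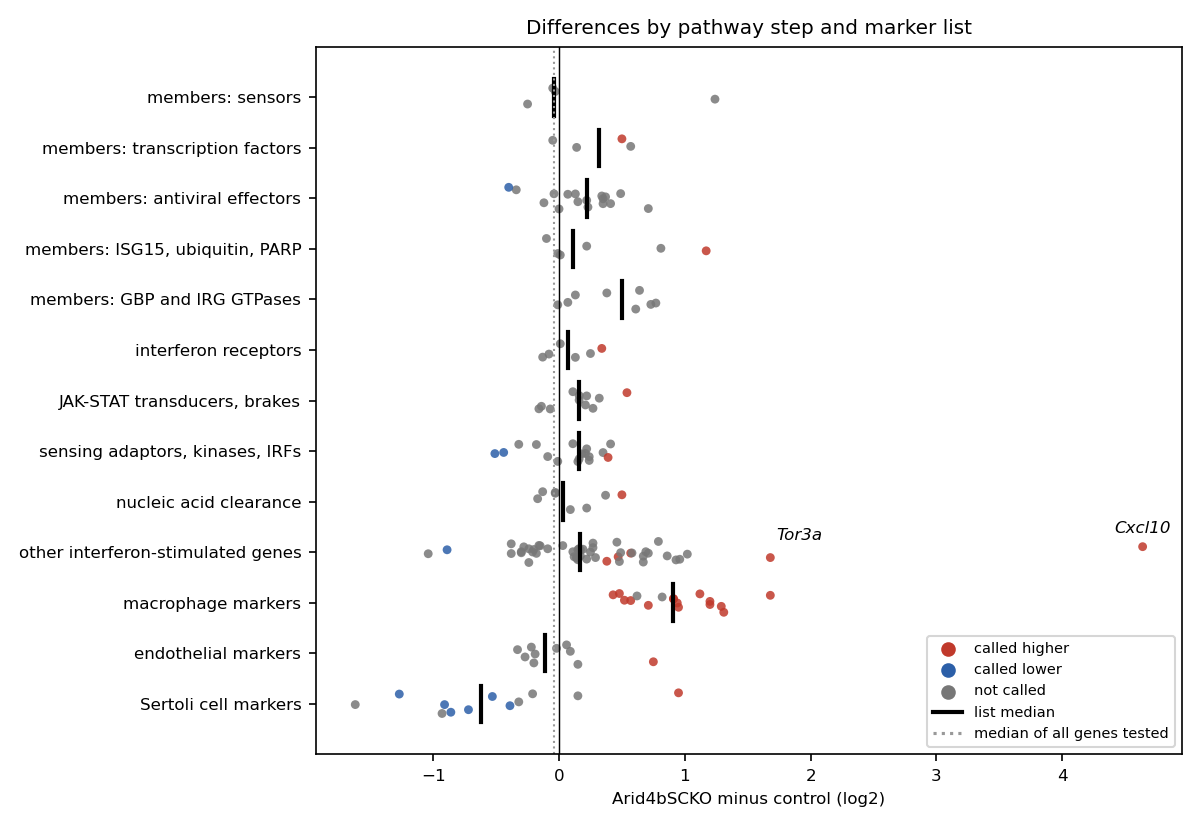
Differences in log2 units, Arid4bSCKO minus control, of single genes (points, coloured by call) by role group of the members, by pathway step and for 3 marker lists, with list medians as black bars and the median of all genes tested as a dotted line. Points of the members cluster near 0 with medians from -0.04 to 0.50, Cxcl10 stands at 4.64, and the macrophage markers have a median of 0.91.

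Among 49 other interferon-stimulated genes, 5 were called higher and 1 lower (12.2%, against the background of 13.8%), and the median difference was 0.17. By the authors' deposited FDR, 0 of the 49 were below 0.05. Cxcl10, the gene of a chemokine that draws T cells and is induced by interferons and by inflammatory signals, had authors' means of 8.20 in Arid4bSCKO and 3.56 in control testes. The difference of 4.64 (95% interval 3.96 to 5.32), or 24.9-fold on this scale, exceeded that of every member. Its level corresponded to about 218 reads per Arid4bSCKO library and 8.78 per control library, and the authors' deposited table gives Cxcl10 an FDR of 0.0656. Its neighbours on chromosome 5, Cxcl9 and Cxcl11, whose products bind the same receptor, were at 0.96 (-1.13 to 3.05) and 0.11 (-1.91 to 2.12), so their intervals lay below that of Cxcl10. Tor3a, an interferon-responsive gene of an endoplasmic reticulum ATPase, rose by 1.68 (1.29 to 2.08), and Ifitm1, which encodes a membrane barrier to virus entry, rose by 0.47 (0.23 to 0.71). The call on Ifitm1 was lost when the length trend was removed (0.34, adjusted p = 0.0607). Ifitm3 rose by 0.57 (0.23 to 0.90), and Oas1c, next to Oas1a, fell by 0.89 (-1.47 to -0.31), both named after their values were seen, as were Cxcl9, Cxcl11, Ube2l6, Uba7, Gbp2b and Gbp4.

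Markers of myeloid cells moved in the same comparison. Of 17 macrophage markers 15 were called higher (88.2%, against 7.37% of all genes tested) and 0 lower, with differences from 0.43 to 1.68. By the authors' deposited FDR, 0 of the 17 were below 0.05. The summed normalized counts of these markers were 9340 in Arid4bSCKO and 4630 in control testes. The complement genes C1qa, C1qb and C1qc rose by 1.2, 1.12 and 1.2, and no marker of that list was at 0 in either group. Without trend and robust fitting, C1qb and C1qc were not called (limma adjusted p = 0.0511 and 0.0512). Most other named calls outside the members were also lost under that setting. Summed normalized counts of the 39 members were 9699 in Arid4bSCKO and 9453 in control testes. Both sums weigh most on the genes with the highest levels, such as Lyz2 among the markers (11.49 in Arid4bSCKO and 9.81 in control testes). Among the members these were Trim25, Bst2 and Samhd1, of which Samhd1 fell, so the sums do not describe the typical gene. The list of 17 markers of lymphocytes, natural killer cells, plasmacytoid and granulocytic cells also holds the member Bst2. By the authors' deposited FDR, 0 of these 17 were below 0.05. In the limma test 2 rose and 1 fell (17.6%, against 13.8% of all genes tested). These were the mast cell genes Cpa3 and Mcpt4, at 1.31 and 1.27, and Flt3, a receptor gene of blood progenitors and dendritic cells, at -1.93. The T cell genes Cd3e and Cd8a had authors' means of 2.44 and 2.18 in Arid4bSCKO testes and 3.09 and 2.43 in control testes. Both fall outside the rule for named genes given below, and neither was called. Their differences were -0.64 (interval -1.98 to 0.69) and -0.25 (-1.62 to 1.13). Cd3g and Cd4 were at -1.45 (-3.18 to 0.29) and 0.04 (-1.33 to 1.42), also not called. Cd3e had about 3.29 reads per Arid4bSCKO library and 6.1 per control library. With the authors' fold of medians, Cd3e, Cd3g, Cd4 and Cd8a were at 0.08, -0.81, 0.85 and -0.76. A lower T cell signal was thus not resolved. Immediate-early and stress genes also moved, with 8 of 15 called higher and 1 lower (60.0%, against 13.8% of all genes tested). By the authors' deposited FDR, 0 of the 15 were below 0.05. Atf3, a stress-induced transcription factor gene, rose by 3.70, Junb, an AP-1 subunit gene, by 2.46 and Btg2, an antiproliferative gene, by 1.48. The part of these cell types and of the stress genes in the values of Isg15, Irf1, Cxcl10 and the other members was not tested.

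Defining markers of the tissue were read in both groups, though not at equal levels. The Sertoli cell gene Sox9, the germ cell gene Ddx4 and the Leydig cell gene Cyp11a1 had authors' means of 10.81, 10.62 and 13.60 in Arid4bSCKO testes and 10.67, 10.91 and 13.68 in control testes, and these 3 genes and Amh were named after their values were seen. Of 12 Sertoli cell markers 6 were called lower and 1 higher (58.3%, against 13.8% of all genes tested). Of the 12 differences 10 were negative, and the median was -0.62, unlike the value of Sox9. Amh, the Sertoli cell hormone gene whose promoter drives the Cre, had authors' means of 12.63 in Arid4bSCKO and 14.25 in control testes, a difference of -1.62 (95% interval -2.93 to -0.32) that was not called (limma adjusted p = 0.111). Nr5a1 and Dmrt1, transcription factor genes of testis development, fell by 0.53 and 0.72, and the tight junction gene Cldn11 rose by 0.95. Of 10 germ cell markers 2 were called, where 13.8% of all genes tested were called. These were Dppa4 and Dnmt3l, which fell by 0.86 and 1.29. With only 10 markers, that count does not set the germ cell list apart from all genes tested. None of 7 Leydig cell markers was called (0 of 7). At an unadjusted p below 0.05 there were 1 of 7 in the limma test, against 29% of all genes tested, and 0 of 7 in the authors' deposited table. Of 10 endothelial markers 1 was called (10.0%), Robo4, higher at 0.75. By the authors' deposited FDR, 0 markers of the Sertoli cell, germ cell, Leydig cell and endothelial lists were below 0.05.

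Members with and without an ISRE core before the start were then set side by side, with no test between them. Of 14 members with the core 1 was called (Isg15, higher) and the median difference was 0.28, with a range of -0.12 to 1.17. Of 14 members with a promoter row and no ISRE core, 2 were called (Irf1 higher and Samhd1 lower) and the median difference was 0.10, with a range of -0.40 to 0.71. These shares were 7.14% with the core and 14.3% without it, against 13.8% of all genes tested. The members with the core had a lower median level, 6.40 against 8.01, and fewer intervals within a 2-fold change, 50.0% against 85.7%, so their calls are not comparable. The ISRE-bearing promoters printed above belong to members with differences from -0.12 (Rsad2) to 1.17 (Isg15), and to Cxcl10 at 4.64. All but that of Isg15 were picked after the values were seen, so they serve as illustration only.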

How the data were processed

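Per the labels' protocols, DNase-treated RNA was made into TruSeq stranded mRNA libraries. The submitters' processing notes name STAR 2.4 and mm10, and no source used here gives the counting tool or the normalization. The authors deposited, per the file headers, the mean of log2 normalized counts per group, a log2 ratio of group medians, a p-value before adjustment and its FDR. On recomputing, the FDR was the Benjamini-Hochberg value. Differences are the Arid4bSCKO minus the control mean. Each gene's variance was derived from the authors' p-value, taken as an equal-variance test with 4 residual degrees of freedom, and shrunk with limma 3.58.1 (squeezeVar, trend on level, robust) in R 4.3.3, over 19095 genes with a mean log2 level of at least 1. P-values were adjusted by Benjamini-Hochberg over those genes, and 95% intervals use the moderated error. The test was run on simulated normal values that used the same equal-variance test. That run cannot show whether the authors used such a test. Its variation in spread between genes and its number of changed genes were set in advance. Filled-in values, 529 rows, were left out.

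Depth was read from genes seen in 1 library: 1 read was worth 1.28 to 1.45 normalized counts in Arid4bSCKO and 1.2 to 1.25 in control, or about 17.5 M and 18.6 M reads per library. Reads per gene are approximate. Transcript lengths were the longest GENCODE M21 transcripts. Since the labels do not name separate litters for the pools, the p-values reflect pool-to-pool spread alone, which may be technical. The members and lists were chosen with earlier results of these data known. Named genes are all called members, the member with the smallest p in each role group not called, fixed pathway genes and up to 3 called genes per list. The result of 1 gene of the pathway is not reported here.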

Additional observations from a re-analysis of the deposited data

How the results depend on the processing

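Values per pool were not analysed here, so leaving out a pool was not run. No paired analysis was possible because the columns hold group values and carry no replicate number. The count of 3 members called held at 3 without a filter on level, at a level of at least 3, without robust fitting and with centring on the median or on a trend over level. It became 2 after centring on transcript length (2 higher, 0 lower) and 4 with the authors' fold of medians (4 higher, 0 lower). It was 0 (0 higher, 0 lower) without trend and robust fitting, a setting that called 1.24% of all genes, and 0 (0 higher, 0 lower) with the FDR of the authors' deposited table. The cause was not tested. Outside the members, the setting without trend and robust fitting kept the calls on Cxcl10, Tor3a, C1qa, Atf3, Junb and Btg2. It lost those on Il10rb, Socs3, Mavs, Unc93b1, Mb21d1, Rnaseh2c, Ifitm1, C1qb, C1qc, Flt3, Cpa3, Mcpt4, Robo4, Nr5a1, Cldn11, Dmrt1, Dppa4 and Dnmt3l. The median difference over the members stayed between 0.20 and 0.26 across the scalings and estimates. Centring on transcript length moved the split of all calls to 1498 higher and 784 lower, from 1408 higher and 1233 lower.

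Uncalled members near 0, and the receptor gene Ifnar1, changed sign. Centring on the median gave 0.01 for Ddx58, 0.03 for Parp9 and 0.02 for Igtp. Centring on level gave 0.01 for Ifih1, 0.01 for Parp9, 0.04 for Igtp and -0.0 for Ifnar1. Centring on length gave 0.06 for Ifih1, 0.03 for Ddx58, 0.03 for Stat2, -0.03 for Rtp4, 0.0 for Dtx3l and 0.04 for Parp9. The fold of medians gave 0.17 for Bst2, 0.05 for Parp9, -0.16 for Gbp7 and 0.12 for Igtp. Low levels limit precision for members with few reads, such as Ifit1, Mx1 and Zbp1.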
